A study of Homo sapiens with 2 samples.

Results

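The CCN genes and the regulators of the YAP/TEAD pathway were followed in ovarian carcinoma cells in which the transcription factor RUNX2 had been suppressed. The set held 10 genes, namely the 6 CCN genes (CCN1, formerly CYR61, CCN2, formerly CTGF, and CCN3 to CCN6), the coactivators YAP1 and WWTR1 (TAZ) and the DNA-binding factors TEAD1 and TEAD4. Every probe whose RefSeq accession belongs to these genes was taken, which gave 17 of the 41000 probes of the array, 10 for CCN genes and 7 for the regulators. Both RNAs came from SKOV3, an ovarian adenocarcinoma cell line, after lentiviral transduction with pLKO.1-puro and selection in puromycin. The knockdown clone cl-sh3 carried a short hairpin RNA against RUNX2, and the control clone carried the same vector with a scrambled sequence. Each side was a single clone, so an effect of RUNX2 and a difference between individual clones cannot be told apart.

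Cyanine-labelled cRNA of the clones was co-hybridized to Agilent arrays covering the human genome and read in 2 colours. In hybridization 1 the Cy5 label was on cl-sh3 and the Cy3 label on the control, and hybridization 2 had the dyes exchanged. Both hybridizations used 1 pair of RNAs on 1 slide and count as 1 replicate, so the 2 values given for each probe show technical error only and no test between the clones was possible. Values are log2 ratios of cl-sh3 over control after background correction and loess normalization, or normalized log2 intensities of each RNA, which are compared within a probe only. A probe was kept when cl-sh3, the control or both passed the software's flag for a signal well above background on each array, which held for 36065 probes (88.0%), of which 36060 had a ratio in both. The 2 ratios of a kept probe differed by a median of 0.22. The brightest RUNX2 probe gave -2.04 and -1.30, that is less RUNX2 RNA in the knockdown clone, while the other 2 RUNX2 probes had means of 0.02 and -0.23. All 8 genes listed as markers of ovarian adenocarcinoma (KRT7, KRT8, KRT18, KRT19, EPCAM, ERBB2, PAX8 and MUC16) passed the flag for a signal well above background in both clones. Their mean log2 ratios lay between -0.66 and 0.83. Markers of blood, endothelial and stromal cells passed the same flag in cl-sh3 for 7 of 7 measured genes and in the control for 6 of 7, with mean log2 ratios between -0.15 and 0.20, so the flag alone was not read as expression.

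CCN proteins are secreted, cysteine-rich proteins of the extracellular matrix that bind integrins and proteoglycans and influence adhesion, migration and matrix deposition. YAP1 and WWTR1 are coactivators that enter the nucleus when the kinases of the Hippo pathway are inactive, where they bind TEAD proteins and switch on target genes, of which CCN2 and CCN1 are the most widely used. TEAD proteins bind the core sequence GGAATG.

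The sequences upstream of CCN2, the member with the highest ratio, and of YAP1, the coactivator, are shown because they hold this core, as does that of CCN6, with 1 match at 128 bases before the start, which is not printed since CCN6 was not measured above background. They were taken from RefSeq on the build GRCh38.p14, where 4 of the 10 genes (CCN2, CCN6, YAP1 and WWTR1) were matched, and cover the 250 bases before the transcription start. CCN2 lies on the minus strand (chr6:131951373-131951622) and YAP1 on the plus strand (chr11:102110197-102110446). Capitals mark each match to GGAATG or to its reverse complement CATTCC.
CCN2: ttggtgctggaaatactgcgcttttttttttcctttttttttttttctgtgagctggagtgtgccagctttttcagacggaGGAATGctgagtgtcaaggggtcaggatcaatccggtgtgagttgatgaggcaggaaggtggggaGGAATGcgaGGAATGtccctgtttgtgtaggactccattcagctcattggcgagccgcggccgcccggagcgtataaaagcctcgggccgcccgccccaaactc
YAP1: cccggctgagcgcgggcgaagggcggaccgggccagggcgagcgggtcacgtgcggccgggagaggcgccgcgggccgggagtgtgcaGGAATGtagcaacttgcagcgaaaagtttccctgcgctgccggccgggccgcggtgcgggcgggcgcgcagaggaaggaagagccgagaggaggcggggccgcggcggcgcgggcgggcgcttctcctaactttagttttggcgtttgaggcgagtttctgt
The CCN2 sequence holds 3 matches, which begin 169, 104 and 95 bases before the start, and the YAP1 sequence holds 1, at 162 bases. Of 27305 promoters of this length, 11.9% hold at least 1 match on either strand and 26 (0.0952%) hold at least 3. The RUNX core TGTGGT or its reverse complement ACCACA, present in 10.9% of these promoters, was found once among the 4 genes, 123 bases before a start of WWTR1, and not in the CCN2, CCN6 or YAP1 sequence. The AP-1 motif TGANTCA, present in 6.6%, and the CArG box bound by SRF, present in 1.14%, were not found in any of the 4. No motif overlapped another, and a match in these letters does not show that a factor was bound.

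CCN2, a matrix protein induced by TGF-beta and by YAP, was the member with the highest mean ratio. Its normalized log2 intensity was 11.07 in cl-sh3 and 10.12 in the control in hybridization 1, and 11.58 and 10.41 in hybridization 2. In both dyes the unnormalized spot was brighter with cl-sh3. With Cy5 the median pixel signal was 3185 for cl-sh3 and 1427 for the control, and with Cy3 it was 2815.5 and 893.5. Each such pair, here and below, compares different arrays, so array brightness enters it. The median over all gene spots was also higher with cl-sh3, at 902.5 against 684 with Cy5 and 507.5 against 451 with Cy3. After normalization the log2 ratios of CCN2 were 0.95 and 1.16, with a mean of 1.06, or 2.08-fold higher in cl-sh3. The ratios of the hybridizations differed by 0.21, less than the median difference of 0.28 among probes of similar brightness. In RNA of whole cultures, a change in the number of cells with a transcript and one in its amount per cell cannot be told apart. This holds for every value here. Only 0.208% of the kept probes had a higher mean. CCN2 missed the study's criterion of a 2-fold difference on each array, since hybridization 1 lay just under it with this normalization, but met it with the ratios of the authors' software, the deposited table or median centring. That criterion was met in the higher direction by 0.122% of all kept probes and in the lower direction by 0.394%. A single probe of the array was assigned to CCN2 by its accession, so the value could not be set against another probe of the gene.

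CCN1, the CYR61 gene and the closest functional relative of CCN2 among YAP targets, was measured by 3 probes and differed far less. Its brightest probe had log2 ratios of 0.23 and 0.31, the next of -0.02 and 0.23, and the dimmest of 0.28 and 0.12. The means lay between 0.10 and 0.27, and no CCN1 probe reached 1.5-fold in either hybridization. All CCN1 means were below that of CCN2, but with 1 pair of RNAs this difference was not tested.

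**Figure D1:**
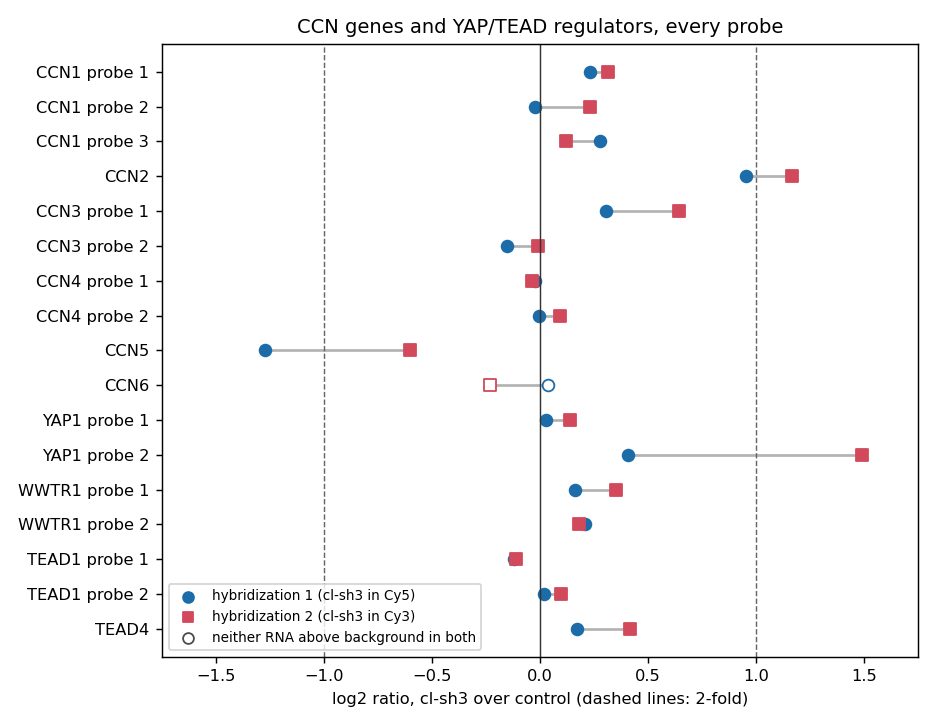
Log2 ratios of cl-sh3 over control for all 17 probes of the 10 genes, with circles for hybridization 1, squares for hybridization 2 and dashed lines at 2-fold; open symbols mark CCN6, which did not pass the background flag on each array in either clone. Probes of a gene are numbered from the brightest. CCN2 lay at 0.95 and 1.16, CCN5 at -1.27 and -0.60, and the second YAP1 probe at 0.40 and 1.49, while the remaining kept probes lay between -0.15 and 0.64.

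CCN5, formerly WISP2, encodes the CCN protein that lacks the carboxy-terminal module of the family and restrains growth in several cell types. It was the only member whose mean was clearly lower in cl-sh3. The normalized log2 intensity was 12.82 in cl-sh3 and 14.09 in the control in hybridization 1, and 13.37 and 13.98 in hybridization 2. With Cy5 the median pixel signal was 10339 for cl-sh3 and 15815 for the control, and with Cy3 it was 10022 and 13712. The control was the brighter RNA in both dyes, but by unequal amounts. The log2 ratios were -1.27 and -0.60, with a mean of -0.94, or 1.91-fold lower, and 0.921% of the kept probes had a lower mean. Their difference of 0.67 exceeded the value of 0.65 that 95% of equally bright probes stayed under by a small margin, and was 0.63 with median centring and 0.38 with the software's ratio. CCN5 was past 2-fold in hybridization 1 only, as 1.4% of kept probes were in that direction.

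Among the other CCN genes the ratios were small or the probes disagreed. CCN3, formerly NOV, encodes a family member often opposed in its effects to CCN2. Its brighter probe had log2 ratios of 0.30 and 0.64, and its dimmer probe of the same accession had -0.15 and -0.01. The means of the CCN3 probes were 0.56 apart, more than the 2 hybridizations differed for either probe. CCN4, formerly WISP1, is a target of WNT signalling. Its log2 ratios were -0.02 and -0.04 with one probe and -0.01 and 0.09 with the other. Both CCN4 probes were kept on the background flag, which alone was not read as expression. Their small ratios therefore do not show that CCN4 was expressed and unchanged. CCN6, formerly WISP3, was not well above background in the control in either hybridization and was so in cl-sh3 in 1 of them. It is given no fold, and its measured log2 ratios were 0.04 and -0.23.

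The coactivator YAP1 gave different answers with its 2 probes, which carry the same accession (NM_006106). For the brighter probe the median pixel signal with Cy5 was 2346.5 for cl-sh3 and 1559.5 for the control, and with Cy3 it was 1477.5 and 1226, which after normalization gave log2 ratios of 0.03 and 0.14. For the dimmer probe the signal was 929 and 568 with Cy5, and 1219 and 347.5 with Cy3, which gave 0.40 and 1.49. The mean of the dimmer probe was 0.95, with 0.369% of the kept probes higher, against 0.08 for the brighter one. Its 2 hybridizations differed by 1.08, well beyond the 0.62 that 95% of probes of that brightness stayed under. It was past 2-fold in hybridization 2 only, where cl-sh3 carried Cy3 and 0.607% of kept probes were at least 2-fold higher.

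WWTR1, the paralogue of YAP1 known as TAZ, showed small ratios that its probes shared. The brighter probe had log2 ratios of 0.16 and 0.35, and the dimmer probe 0.21 and 0.18. Both were higher in cl-sh3 in both hybridizations, by means of 0.26 and 0.19 that correspond to 1.20-fold and 1.14-fold. The median pixel signal of the brighter probe was 3044 for cl-sh3 and 1865 for the control with Cy5, and 2047 and 1465.5 with Cy3. These unnormalized pairs compare different arrays, on which the median gene spot was also brighter with cl-sh3 in both dyes.

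**Figure D2:**
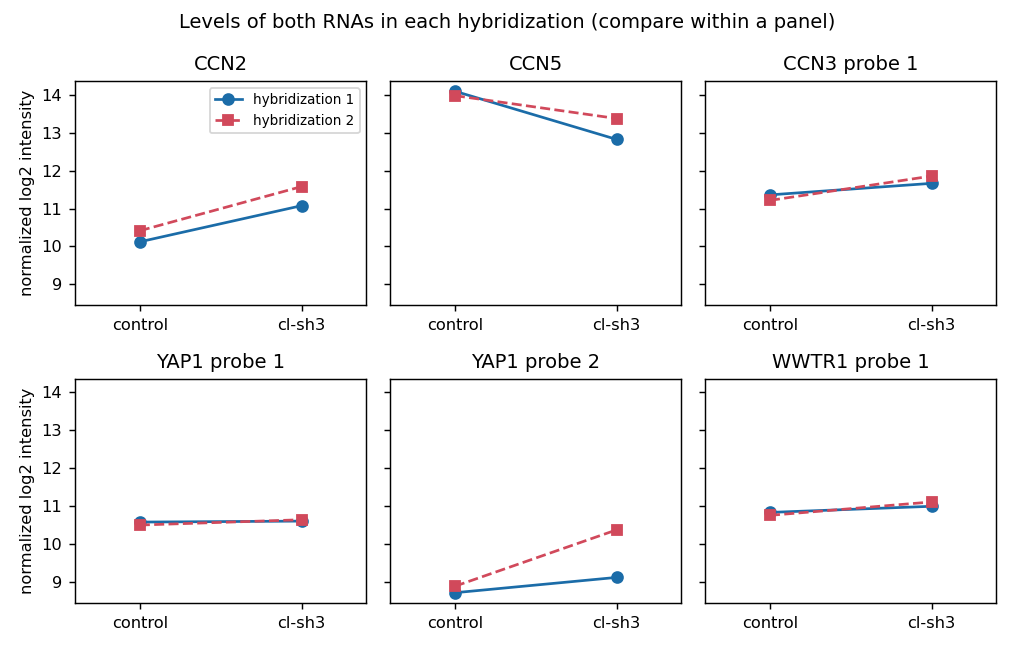
Normalized log2 intensity (after loess and Aquantile scaling between arrays) of the control and of cl-sh3 in hybridization 1 (solid, circles) and hybridization 2 (dashed, squares) for 6 probes. CCN2 was higher and CCN5 lower in cl-sh3 in both hybridizations, the lines of the brighter YAP1 probe were almost level, and those of the dimmer YAP1 probe diverged.

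The TEAD factors, which provide the DNA contact for YAP1 and WWTR1, differed little between the clones. TEAD1 had log2 ratios of -0.12 and -0.11 with its brighter probe and of 0.02 and 0.10 with the dimmer one, so that its probes pointed in opposite directions. TEAD4 had a single probe, with log2 ratios of 0.17 and 0.42 and a mean of 0.29, or 1.23-fold higher. In hybridization 1 its normalized log2 intensity was 10.60 in cl-sh3 and 10.43 in the control, and in hybridization 2 it was 10.69 and 10.27.

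Over the whole set, 16 of the 17 probes, for 9 of the 10 genes, were kept, and 0 met the 2-fold criterion in either direction, against 0.516% of all kept probes. At a limit of 1.5-fold in both, CCN2 was higher and CCN5 lower, where 1.35% of all kept probes were higher and 2.32% lower. The ratio had the same sign in both hybridizations for 14 of the 16 probes, 10 of them higher and 4 lower, compared with 29.8% higher and 27.3% lower among all kept probes. The median of the 16 means was 0.15, beside 0.01 for all kept probes. For CCN probes it was 0.10 and for probes of the regulators 0.19. Probes of a gene are not independent, so these counts run over probes and not over genes. The difference between hybridizations was at or below the median for equally bright probes in 12 of the 16.

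**Figure D3:**
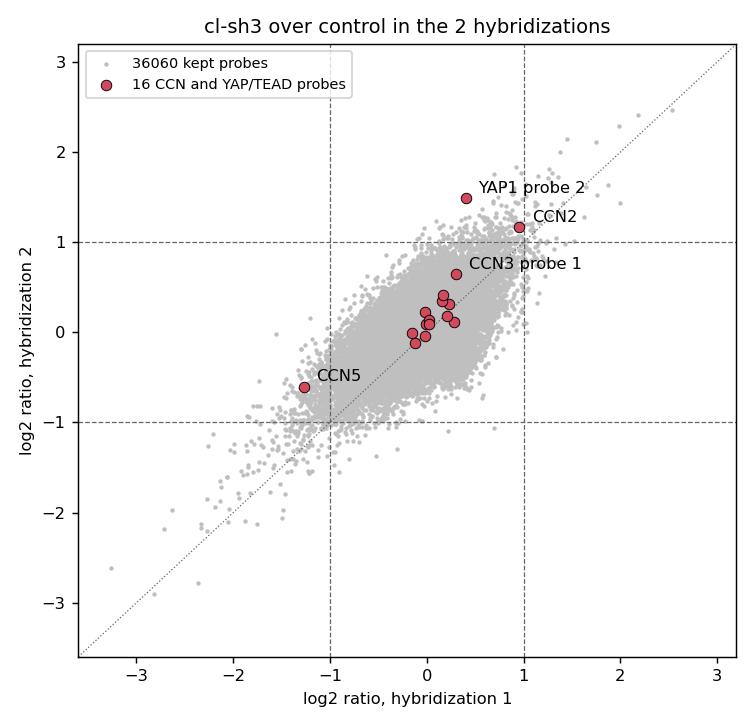
Log2 ratio of cl-sh3 over control in hybridization 1 against hybridization 2 for the 36060 kept probes (grey) and the 16 kept probes of CCN and YAP/TEAD genes (red), with dashed lines at 2-fold and a dotted line of equality. CCN2 lay at the edge of the upper right corner, CCN5 past the line on the x axis only, and the second YAP1 probe past the line on the y axis only.

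Further genes of the pathway were taken from 5 lists with 87 different genes, each represented by its brightest kept probe, and 86 had one. By the 2-fold criterion 1 of these was higher and 1 lower, where 0.136% and 0.514% of 16150 genes were. At 1.5-fold, 3 were higher and 3 lower, against 1.6% and 2.59% of all genes. CCN2, NF2, GADD45A and ITGB2 were also picked out by the study on these same arrays, so their values are no independent evidence.

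The Hippo kinases and their adaptors, which hold YAP1 and WWTR1 in the cytoplasm, showed 0 of 29 measured genes past 2-fold in both hybridizations. NF2, which encodes merlin, an activator of the kinase cascade at the membrane, stood apart from the rest. The 4 NF2 probes were all higher in cl-sh3 in both hybridizations, with 0.86 and 1.31 for the brightest and means of 0.68, 0.58 and 0.35 for the others. The kinase LATS2, which phosphorylates YAP1 and is itself a YAP target, had log2 ratios of -0.57 and -0.41, and a second probe had a mean of -0.23. LATS1 had 0.09 and 0.18, and its control signal passed the background flag on 1 array. The upstream kinases STK3 (-0.55 and -0.02) and STK4 (-0.25 and -0.04) and the scaffold SAV1 (0.04 and -0.07) were under 1.5-fold in both. The same sign on each array was seen for 6 higher and 10 lower genes of the list, where 30.9% and 28.4% of all genes were. The list median was -0.02 and became 0.03 with median centring in place of loess, beside 0.01 and 0.05 for all genes. The other TEAD genes and the VGLL cofactors, which compete with YAP1 for TEAD, had means between -0.09 and 0.12, including TEAD2 (0.12), TEAD3 (0.06) and VGLL4 (-0.09). They were kept on the background flag, which alone was not read as expression. Small ratios here therefore do not show that a gene was expressed and unchanged.

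Of 24 listed YAP/TAZ target genes beyond CCN1 and CCN2, 8 were higher on each array, 8 lower and 8 changed sign, close to the 30.9% higher and 28.4% lower among all genes, and the median was 0.01, equal to that of all genes. IGFBP3, an insulin-like growth factor binding protein, was higher by 0.83 and 0.86 with its brightest probe, although its other probe had a mean of 0.05. ANKRD1, a nuclear ankyrin repeat protein and a widely used YAP target, gave 0.57 and 0.66, and its control signal passed the background flag on 1 array only. At least 1.5-fold lower in both were GADD45A (-1.73 and -1.44), a stress-induced growth arrest gene, MYOF (-0.78 and -1.08), a membrane repair protein, and NT5E (-0.91 and -0.62), the ectonucleotidase CD73. All 3 MYOF probes and all 3 NT5E probes were lower in both hybridizations. AXL, a receptor tyrosine kinase, had -0.37 and -0.19, and AMOTL2, an angiomotin that binds YAP1, had 0.12 and -0.10.

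The list of TGF-beta, SRF and RHOA pathway genes, which act upstream of CCN2 and include the inhibitory SMAD7, had 0 of 15 members past 1.5-fold in both hybridizations, 3 higher and 9 lower in both, and a median of -0.11. Of 16 receptors and binding partners of CCN proteins, 9 were higher and 4 lower in both, with a median of 0.13. Both lists stand beside 30.9% higher and 28.4% lower among all genes. ITGB2, the beta subunit of the leukocyte integrins that bind CCN1 and CCN2, met the 2-fold criterion with log2 ratios of 1.25 and 1.01, but no longer did so without background correction.

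**Figure D4:**
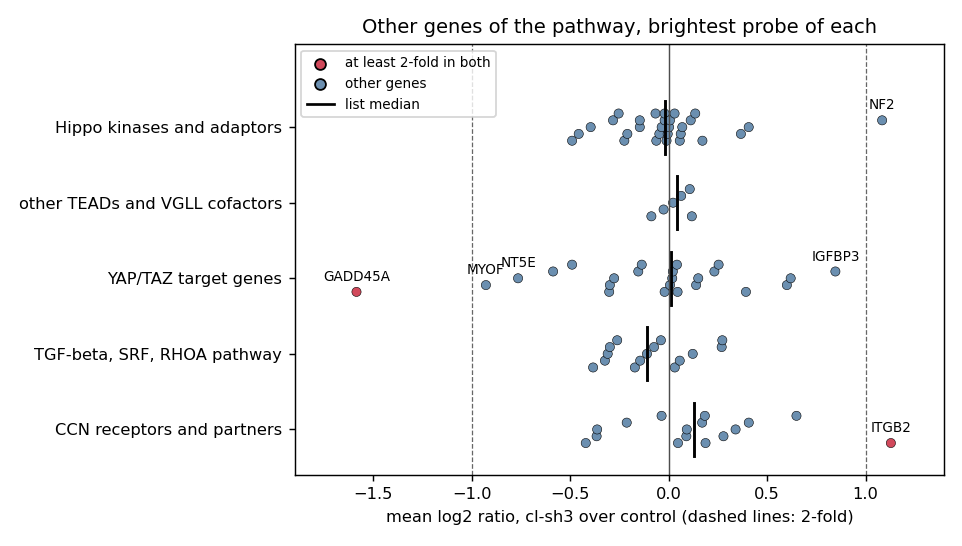
Mean log2 ratio of cl-sh3 over control for the brightest kept probe of each gene in the 5 pathway lists, with a black bar at the median of each list, dashed lines at 2-fold, and red points for genes at least 2-fold changed in both hybridizations. Names mark genes at least 1.5-fold changed in both. GADD45A at -1.59 and ITGB2 at 1.13 were the red points, and the medians lay between -0.11 and 0.13.

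How CCN2 stood to the 2-fold line depended on the normalization. With each array centred on its median in place of loess, its log2 ratios were 1.04 and 1.19, and with the ratios computed by Feature Extraction 1.14 and 1.15, so that it was past 2-fold in both hybridizations, as 0.214% and 0.286% of kept probes were under those settings. Without background correction, when 0.0915% of kept probes were past 2-fold higher, it had 0.91 and 1.17. The dimmer YAP1 probe stayed between 0.35 and 0.61 in hybridization 1 and between 1.44 and 1.70 in hybridization 2, and CCN5 between -1.27 and -1.11 and between -0.73 and -0.54. Neither was past 2-fold in both hybridizations under any of these settings.

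**Figure D5:**
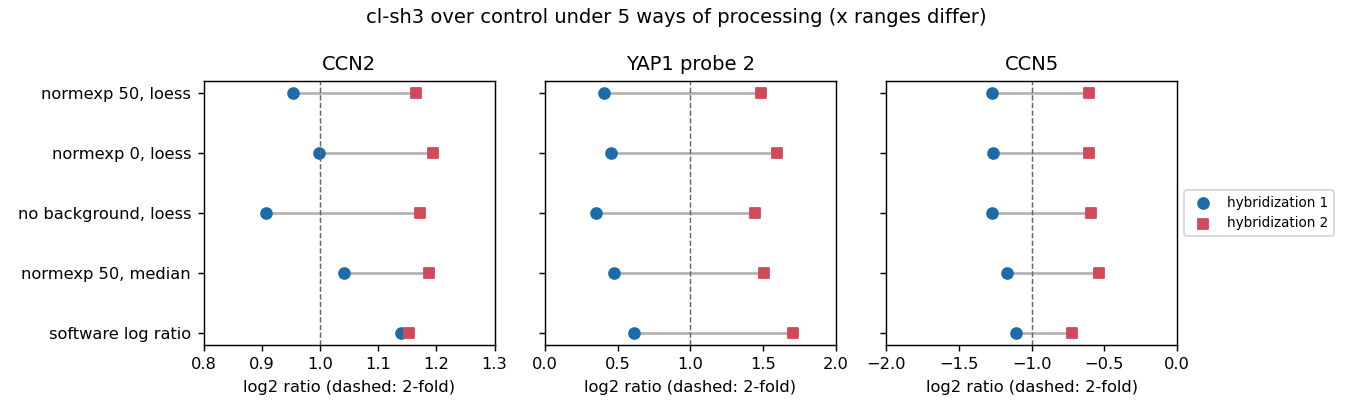
Log2 ratio of cl-sh3 over control for CCN2, the dimmer YAP1 probe and CCN5 under 5 ways of processing, with circles for hybridization 1, squares for hybridization 2, a dashed line at 2-fold, and x ranges that differ between panels. CCN2 in hybridization 1 moved from 0.91 to 1.14, on both sides of the line. The gap between hybridizations for CCN5 was 0.38 with the software's ratio and 0.67 with the main processing, and for YAP1 it was 1.09 and 1.08.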

How the data were processed

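RNA of cl-sh3 and of the control clone was compared on 2 arrays with reversed dyes. The authors deposited the intensity of each spot and its local background as read by Agilent Feature Extraction (version 10.5.1.1 in the file headers, 8.5.1.1 in the submitters' processing notes), with flags. The authors also deposited log10 ratios (Cy5 to Cy3) from Feature Extraction, and a table of log10 ratios equal to these within 0.0005 and 0.00173. The deposited intensities are not normalized, and no spot was saturated. Median signals of gene spots were 451 and 507.5 for Cy3 and 902.5 and 684 for Cy5, over backgrounds from 43 to 166.5.

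Median pixel intensities were background-corrected in limma 3.58.1 (R 4.3.3) by the normexp method, with an offset of 50. Control spots were then removed, 153 and 144 spots with outlier flags were set to missing, and arrays were normalized by loess. The offset draws dim probes towards 0. Spots of a probe were averaged and signs turned to cl-sh3 over control. An RNA was well above background when at least 50% of a probe's spots had that flag. Intensities of single RNAs were scaled between arrays by Aquantile.

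Of 32890 accessions on the array, 19228 were RefSeq accessions, and 18020 were named through RefSeq (GRCh38.p14). For RUNX2, 1 accession was named through the study's supplementary table. The array was annotated on another build. The genes named are all members, RUNX2, a fixed set of core pathway genes, and list or neighbouring genes at least 1.5-fold changed in both hybridizations. BIRC2 and BIRC3 fall outside this rule. Members and lists were chosen with earlier results of these data known. The normalization and 2-fold rule were tested on simulated data in which every change was larger than 2-fold. That test therefore does not bear on values near the 2-fold line, such as that of CCN2. No p-value was computed, since 1 pair of RNAs allows none, and the number of arrays limits the precision. Python 3.11.15 with pandas 2.3.3, numpy 2.4.6 and matplotlib 3.10.9 was used.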

Additional observations from a re-analysis of the deposited data

How the results depend on the processing

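The mean CCN2 log2 ratio of 1.06 lay between 1.04 and 1.15 under the processing alternatives and between 0.95 and 1.16 with each hybridization left out in turn. The number of CCN and YAP/TEAD probes past 2-fold, 0 with the main processing, became 1 (CCN2, higher) with median centring, the software's log ratio, the deposited table or the mean of both hybridizations. By that mean, 0.258% of all kept probes were at least 2-fold higher. With 1.5-fold it was 2 (1 higher, 1 lower), and with each hybridization left out in turn it lay between 1 and 2 (0 to 2 higher, 0 to 1 lower): CCN2 and the dimmer YAP1 probe without hybridization 1, CCN5 without hybridization 2. It stayed at 0 with offset 0, no background correction, flagged spots kept, no detection filter or both RNAs required. Of the 2 list genes past 2-fold (1 higher, 1 lower), ITGB2 was lost without background correction, leaving 1 in all and 0 higher. NF2 was added with median centring and with the mean of both, giving 2 higher, where 0.214% and 0.258% of all kept probes were higher. At 1.5-fold there were 6 (3 higher, 3 lower), and with each hybridization left out between 2 and 4 (1 to 2 higher, 1 to 2 lower), NF2 and MYOF being added without hybridization 1. Of the other 15 kept member probes, only those of CCN4 changed the sign of their mean, 3 times in 90 recomputed values, and all of these were under 0.05 in size. Of the 90, 19 moved by more than the technical SD, which is the SD of a probe's 2 hybridizations. Where the 2 values happened to be close, a very small shift also counted. The brighter TEAD1 probe went only from -0.12 to -0.11 with the software's ratio. That ratio and the deposited table, nearly the same values, were counted as separate alternatives. Among the 19, the mean of CCN1's brightest probe went from 0.27 to 0.44 with median centring. With the software's ratio that of the brighter YAP1 probe went from 0.08 to 0.24 and of the dimmer TEAD1 probe from 0.06 to 0.21. The second CCN1 probe went from 0.10 to 0.25 with median centring, which was within its technical SD. The number of arrays limits every value to technical error.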

Other observations

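Genes beside CCN2 and YAP1 on the chromosome were examined, taking 5 protein-coding genes on each side in RefSeq order. The 7 measured neighbours of CCN2 had a median log2 ratio of -0.16, and none was at least 1.5-fold higher in both hybridizations. MOXD1, the gene next to CCN2, was lower in cl-sh3, with -0.83 and -0.59. The 9 measured neighbours of YAP1, which include matrix metalloproteinase genes, had a median of -0.02. TMEM123 was lower, with -0.71 and -0.62. The inhibitor of apoptosis genes BIRC3 (0.41 and 1.02), next to YAP1, and BIRC2 (-1.02 and -0.46), next to BIRC3, had opposite signs. Neither was at least 1.5-fold changed in both hybridizations, and they were named after their values were seen.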
